A study of Mus musculus with 36 samples.

Results

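The data described here are the introns and splice junctions of Clk1, Clk2, Clk3 and Clk4, the 4 mouse genes of the CDC2-like kinase family, in 36 RNA-seq libraries of Zrsr2-deficient and wild-type cells. The members were taken by symbol, and their introns were found by matching every intron listed in the deposited tables to the GENCODE M21 annotation. The tables list 45 member introns, 12 each of Clk1, Clk2 and Clk4 and 9 of Clk3, of 219945 introns in all, and the 4 genes are 4 of 31890 genes with a listed intron.

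CLK kinases phosphorylate the arginine- and serine-rich domains of SR proteins, the family of splicing factors that helps the spliceosome define exons, and they sit in the nucleus with those substrates. Transcripts of this family are textbook cases of detained introns, which are introns left in polyadenylated RNA that stays in the nucleus. The introns concerned lie on either side of an alternative exon, exon 4, whose skipping gives a shortened product without kinase activity or a transcript open to nonsense-mediated decay. ZRSR2 is a protein of the minor spliceosome that acts at the acceptor sites of U12-type introns, and ZRSR1 is its close relative.

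All cells were C57BL/6. Common myeloid progenitors (CMP), granulocyte-macrophage progenitors (GMP) and megakaryocyte-erythroid progenitors (MEP) were sorted from 3 Zrsr2 knockout (KO) and 3 wild-type (WT) male littermates, so that 1 mouse gave 1 library of each type. Mouse embryonic fibroblasts (MEF) came from 3 KO and 3 WT male embryos, numbered 4 to 6 in the labels. Lineage-negative Kit-positive (Lin-Kit+) bone marrow cells of each genotype were grown ex vivo with the Zrsr1 hairpin sh1, the Zrsr1 hairpin sh10 or a control hairpin, in 2 experiments with 1 library of each of the 6 combinations. RNA was polyadenylated RNA throughout. The sorted progenitors and MEF were prepared with a TruSeq kit and the Lin-Kit+ cells with NEBNext Ultra, so that kit, culture and cell type cannot be told apart between the Lin-Kit+ libraries and the rest. In bulk samples of this kind, fewer cells of a type and less RNA per cell cannot be told apart.

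The 4 copies of exon 4 carry the alternative splice choice, so they are printed with the 10 intronic bases on each side, 5′ to 3′ on the transcribed strand. They were read from GENCODE M21 transcripts (mm10) that keep the flanking introns. Capitals mark the last 2 bases of intron 3 and the first 2 bases of intron 4. The exons lie at chr1:58420121-58420211 on the minus strand (Clk1), chr3:89169618-89169702 on the plus strand (Clk2), chr9:57758627-57758723 on the minus strand (Clk3) and chr11:51273078-51273168 on the plus strand (Clk4).
Clk1 exon 4: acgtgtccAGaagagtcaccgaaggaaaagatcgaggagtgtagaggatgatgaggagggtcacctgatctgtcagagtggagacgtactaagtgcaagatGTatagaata
Clk2 exon 4: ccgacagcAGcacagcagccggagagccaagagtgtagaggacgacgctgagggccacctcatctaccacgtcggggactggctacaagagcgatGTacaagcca
Clk3 exon 4: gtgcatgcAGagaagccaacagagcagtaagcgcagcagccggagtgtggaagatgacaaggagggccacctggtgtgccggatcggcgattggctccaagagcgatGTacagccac
Clk4 exon 4: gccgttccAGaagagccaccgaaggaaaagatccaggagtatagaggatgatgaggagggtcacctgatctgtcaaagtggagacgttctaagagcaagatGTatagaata

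The exon is 91 bases long in Clk1 and Clk4, 85 in Clk2 and 97 in Clk3, and none of these lengths is a multiple of 3, so that skipping it shifts the reading frame in each gene. The Clk1 and Clk4 exons were identical at 85 of 91 aligned bases (93.4%), whereas the other pairs shared 61.5% to 65.3%. GC content was 48.4% in Clk1, 61.2% in Clk2, 59.8% in Clk3 and 47.3% in Clk4. Reads of Clk1 and Clk4 were assigned to these introns by the authors, and reads that both genes could match would make their values uncertain at this exon. The junctions that skip exon 4, intron 4 of Clk4 and introns 10 to 12 of Clk3 were not analysed here.

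The 5′ splice sites of the flanking introns shared fewer bases with the usual mammalian sequence CAGGTAAGT than those of the rest. Each site is shown as the last 3 exonic and first 6 intronic bases, with the GT that starts the intron in capitals. Intron 4 read gatGTatag in Clk1, gatGTacaa in Clk2 and gatGTacag in Clk3, each with 4 of 9 bases matching and none with a G at the fifth intronic base. Intron 3 read gggGTatga in Clk1, tcaGTgagt in Clk2, tcgGTgagt in Clk3 and tcgGTatga in Clk4, with 5 to 6 matching bases and a G at the fifth base in 4 of 4. In 11 other member introns the 5′ site could be read, because an annotated exon of another transcript runs across it. They had 6 to 8 matching bases, and 9 of the 11 had that G. These introns are a subset fixed by which transcripts are annotated, and the count is a description.

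The flanking introns are 276 to 2100 bases long. Intron 3 spans chr1:58420212-58421082 in Clk1 (871 bases), chr3:89168924-89169614 in Clk2 (691 bases), chr9:57758724-57760823 in Clk3 (2100 bases) and chr11:51272023-51273077 in Clk4 (1055 bases). Intron 4 spans chr1:58419734-58420120 in Clk1 (387 bases), chr3:89169703-89170048 in Clk2 (346 bases) and chr9:57758351-57758626 in Clk3 (276 bases). All 7 lie whole inside an exon of an annotated transcript that keeps them, against 6 of the 38 other listed introns. Clk2 intron 3 is listed with an end that lies 3 bases before exon 4 of the reference transcript, at the upstream AG of a tandem acceptor, and the junction to the downstream AG was not analysed here.

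Retention was read from the deposited percentage named MSI. It is the mean of the exon-intron reads at both ends of an intron, as a percentage of that mean plus the reads spliced across the intron. A value of 50% therefore means as many unspliced reads at an average end as reads spliced across that exact intron. Reads that skip the alternative exon, or join the downstream AG of the tandem acceptor in Clk2, are not counted as spliced. Any such reads would make the values of the flanking introns too high against introns without such junctions. Their part in the retention values, ranks and log2 ratios below was not tested.

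Among the listed introns numbered in the reference transcripts, those that flank exon 4 had the highest retention in sorted progenitors. Over the 18 progenitor libraries the median was 51.9% for Clk1 intron 3 and 42.8% for Clk1 intron 4, 21.0% and 46.0% for introns 3 and 4 of Clk2, 29.4% and 18.5% for those of Clk3, and 49.0% for Clk4 intron 3. The other introns of the same genes had medians of 2.19% in Clk1, 2.72% in Clk2, 1.83% in Clk3 and 4.13% in Clk4. The listed intron that skips exon 2 of Clk4 has no number in the reference transcript and is left out of these medians and the counts below. It had up to 73 exon-intron reads in a group mean, and 0 to 37 spliced reads in a progenitor library. Every listed flanking intron was above every other numbered intron of its gene in 18 of 18 progenitor libraries for Clk1, Clk3 and Clk4. In Clk2 both were above the others in 12 of 18, and the highest was a flanking intron in 18 of 18. In MEF they were above all the others in 5 of 6 libraries for Clk1, 4 of 6 for Clk2, 1 of 6 for Clk3 and 6 of 6 for Clk4.

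**Figure D1:**
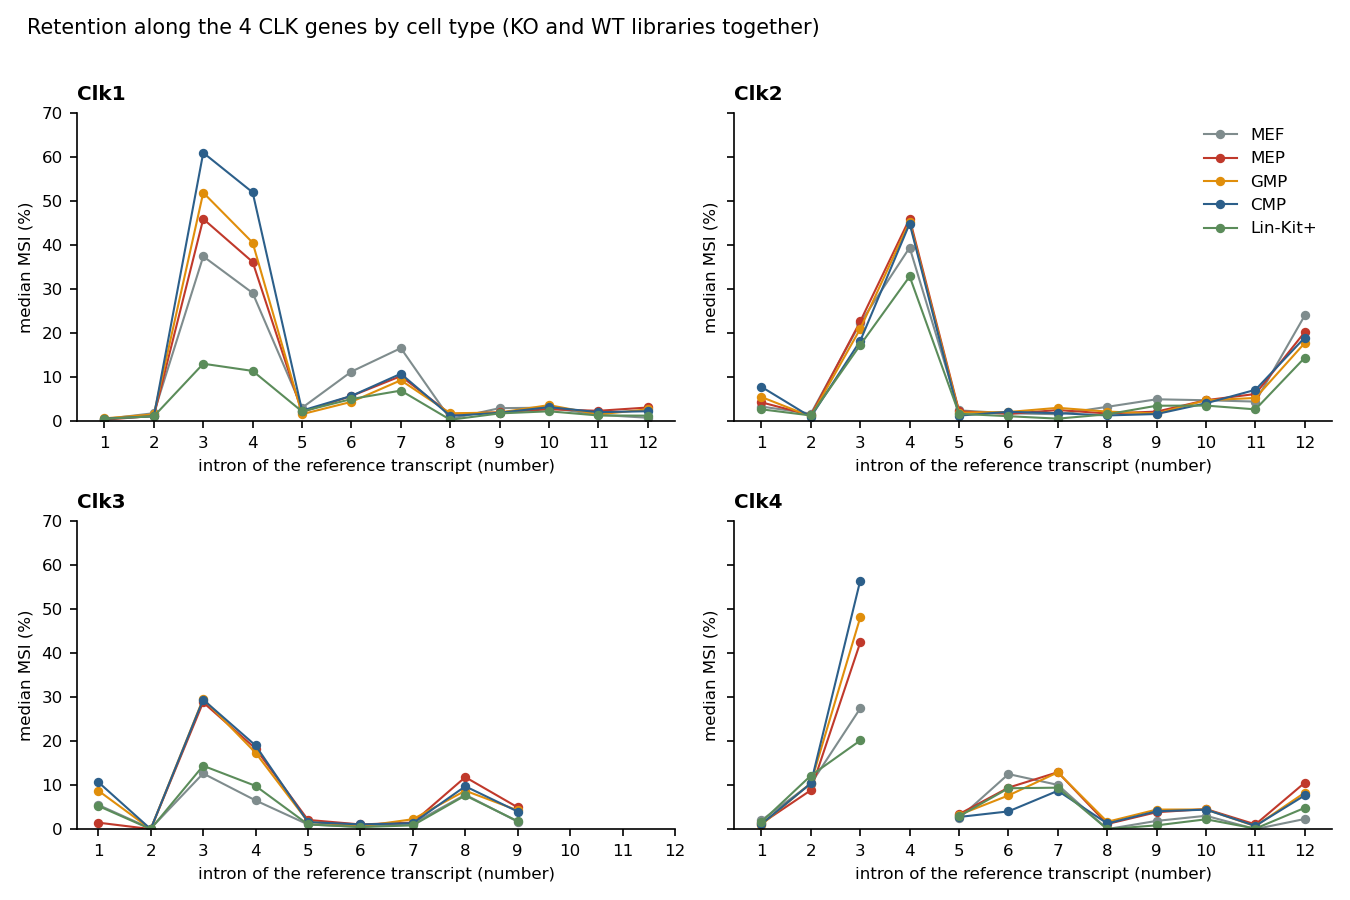
Median retention (deposited MSI, in percent, vertical axis) of each listed intron by its number in the reference transcript (horizontal axis), for the 4 Clk genes; KO and WT libraries are pooled, 1 line per cell type. In the CMP, GMP and MEP lines the highest point of each gene is a listed flanking intron. Over the 18 progenitor libraries together, which have no line, the medians are 51.9% for Clk1 intron 3 and 46.0% for Clk2 intron 4. The Lin-Kit+ line is below the median of these 18 libraries at all 7 flanking introns. At Clk3 intron 4 the MEF line is lowest, at 6.51%.

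The order within the pair differed between the genes. In 18 of 18 progenitor libraries intron 4 was above intron 3 in Clk2, and in 0 of 18 it was above intron 3 in Clk1 or Clk3. MEF gave the same order, 6 of 6 for Clk2 and 0 of 6 for Clk1 and Clk3. In Lin-Kit+ cells intron 4 was above intron 3 in 12 of 12 libraries for Clk2, 4 of 12 for Clk1 and 3 of 12 for Clk3. Of the exon-intron reads at Clk2 intron 3 in progenitors, 13.7% were at the 3′ end, the end with the tandem acceptor, so that its value rests mostly on the 5′ end. Coverage of the 7 flanking introns was complete or nearly so, with a covered fraction of 0.996 to 1 in Clk3 intron 3.

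Among all introns with a mean of at least 20 reads in a group, these introns stood near the top. In WT CMP, 1.26% of 114695 ranked introns were at or above Clk1 intron 3, 1.26% at or above Clk4 intron 3 and 1.86% at or above Clk2 intron 4, where the median intron was at 1.49%. Clk2 intron 3 was the lowest of the 7, with 5.99% at or above it. In WT MEF the corresponding shares ran from 0.839% to 9.67% of 123411 introns.

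Fewer spliced reads crossed the flanking introns of Clk1 than its other introns in progenitors. The part of exon 4 skipping in this was not tested. At Clk1 intron 3 the spliced reads were 29.1% to 67.1% of the median over the other Clk1 introns in progenitors (median 48.7%), and at intron 4 they were 22.7% to 58.8% (median 43.7%). Lin-Kit+ cells had 57.9% to 116% and 57.7% to 101%. In the other genes the deficit in progenitors was smaller at most of these introns. The median was 72.4% at Clk2 intron 3 and 49.6% at Clk2 intron 4, 78.0% at Clk3 intron 3 (63.2% to 102%), 90.1% at Clk3 intron 4 (64.9% to 110%) and 73.7% at Clk4 intron 3 (53.3% to 129%).

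A second set of introns had intermediate retention in progenitors. Clk2 intron 12, the last one, had 14.5% to 25.7% (median 19.3%). Clk4 intron 7 had 6.15% to 24.4% and its counterpart Clk1 intron 7 had 6.66% to 12.9%. Clk3 intron 8 had 6.54% to 17.2% and Clk4 intron 12 had 5.61% to 13.2%. Annotated exons of other transcripts run across an end of Clk2 intron 12, Clk1 intron 7, Clk3 intron 8 and Clk4 intron 12. The part of those exons in these values was not tested. Of the 45 listed introns, 39 had at least 20 exon-intron reads in the mean of at least 1 group or passed a test; the other 6 are counted but not described one by one.

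KO and WT progenitors overlapped at the most retained introns. Clk1 intron 3 had 66.9%, 51.9% and 73.2% in KO CMP against 60.6%, 49.2% and 61.4% in WT CMP, and 49.5%, 52.0% and 65.4% in KO GMP against 51.8%, 43.7% and 65.5% in WT GMP. In MEP it had 51.9%, 37.9% and 54.1% in KO and 49.0%, 36.0% and 42.8% in WT. The groups overlapped in all 3 cell types, and the spread between mice of 1 genotype reached over 20 percentage points in KO CMP.

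Clk1 intron 4 had 55.7%, 44.1% and 65.0% in KO CMP against 52.2%, 43.4% and 51.7% in WT CMP. It had 41.0%, 36.8% and 59.2% in KO GMP against 40.1%, 30.7% and 47.6% in WT GMP. In MEP it had 44.1%, 30.1% and 42.2% in KO and 41.6%, 25.0% and 30.7% in WT. Replicate 2 was the lowest of its group in each of these 6 groups, in KO and in WT alike. KO was above WT in 9 of 9 pairs of the same replicate number at this intron, in 7 of 9 at Clk1 intron 3 and in 3 to 6 of 9 at the other 5 flanking introns. The 9 pairs come from 3 KO and 3 WT mice, so they are not 9 independent pairs. With the number as a block, the differences at Clk1 intron 4 were 0.35, 0.37 and 0.41 on the log2 scale in CMP, GMP and MEP, with unadjusted p of 0.0804, 0.0762 and 0.0562 and diffSpliceDGE adjusted p of 0.825 to 0.994.

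Clk4 intron 3 had 61.9%, 52.4% and 55.2% in KO CMP against 63.1%, 50.5% and 57.7% in WT CMP, and 46.6%, 42.4% and 60.5% in KO GMP against 49.6%, 46.6% and 56.8% in WT GMP. In MEP it had 43.9%, 40.9% and 48.4% in KO and 44.6%, 31.1% and 36.7% in WT. These groups overlapped too.

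The flanking introns of Clk2 and Clk3 overlapped between KO and WT as well. Clk2 intron 4 had 46.6%, 43.1% and 49.6% in KO CMP against 52.8%, 40.6% and 38.6% in WT CMP, and all 18 progenitor libraries lay between 36.3% and 52.8%. Clk2 intron 3 lay between 11.1% and 27.0%, both extremes being a single library each (WT CMP replicate 3 and KO MEP replicate 3). Clk3 intron 3 had 28.6%, 30.2% and 30.3% in KO CMP against 36.8%, 28.5% and 17.3% in WT CMP, and Clk3 intron 4 had 19.1%, 18.9% and 18.1% in KO CMP against 32.4%, 22.4% and 13.7% in WT CMP. At both Clk3 introns the 3 WT CMP libraries spanned the KO CMP values on either side.

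**Figure D2:**
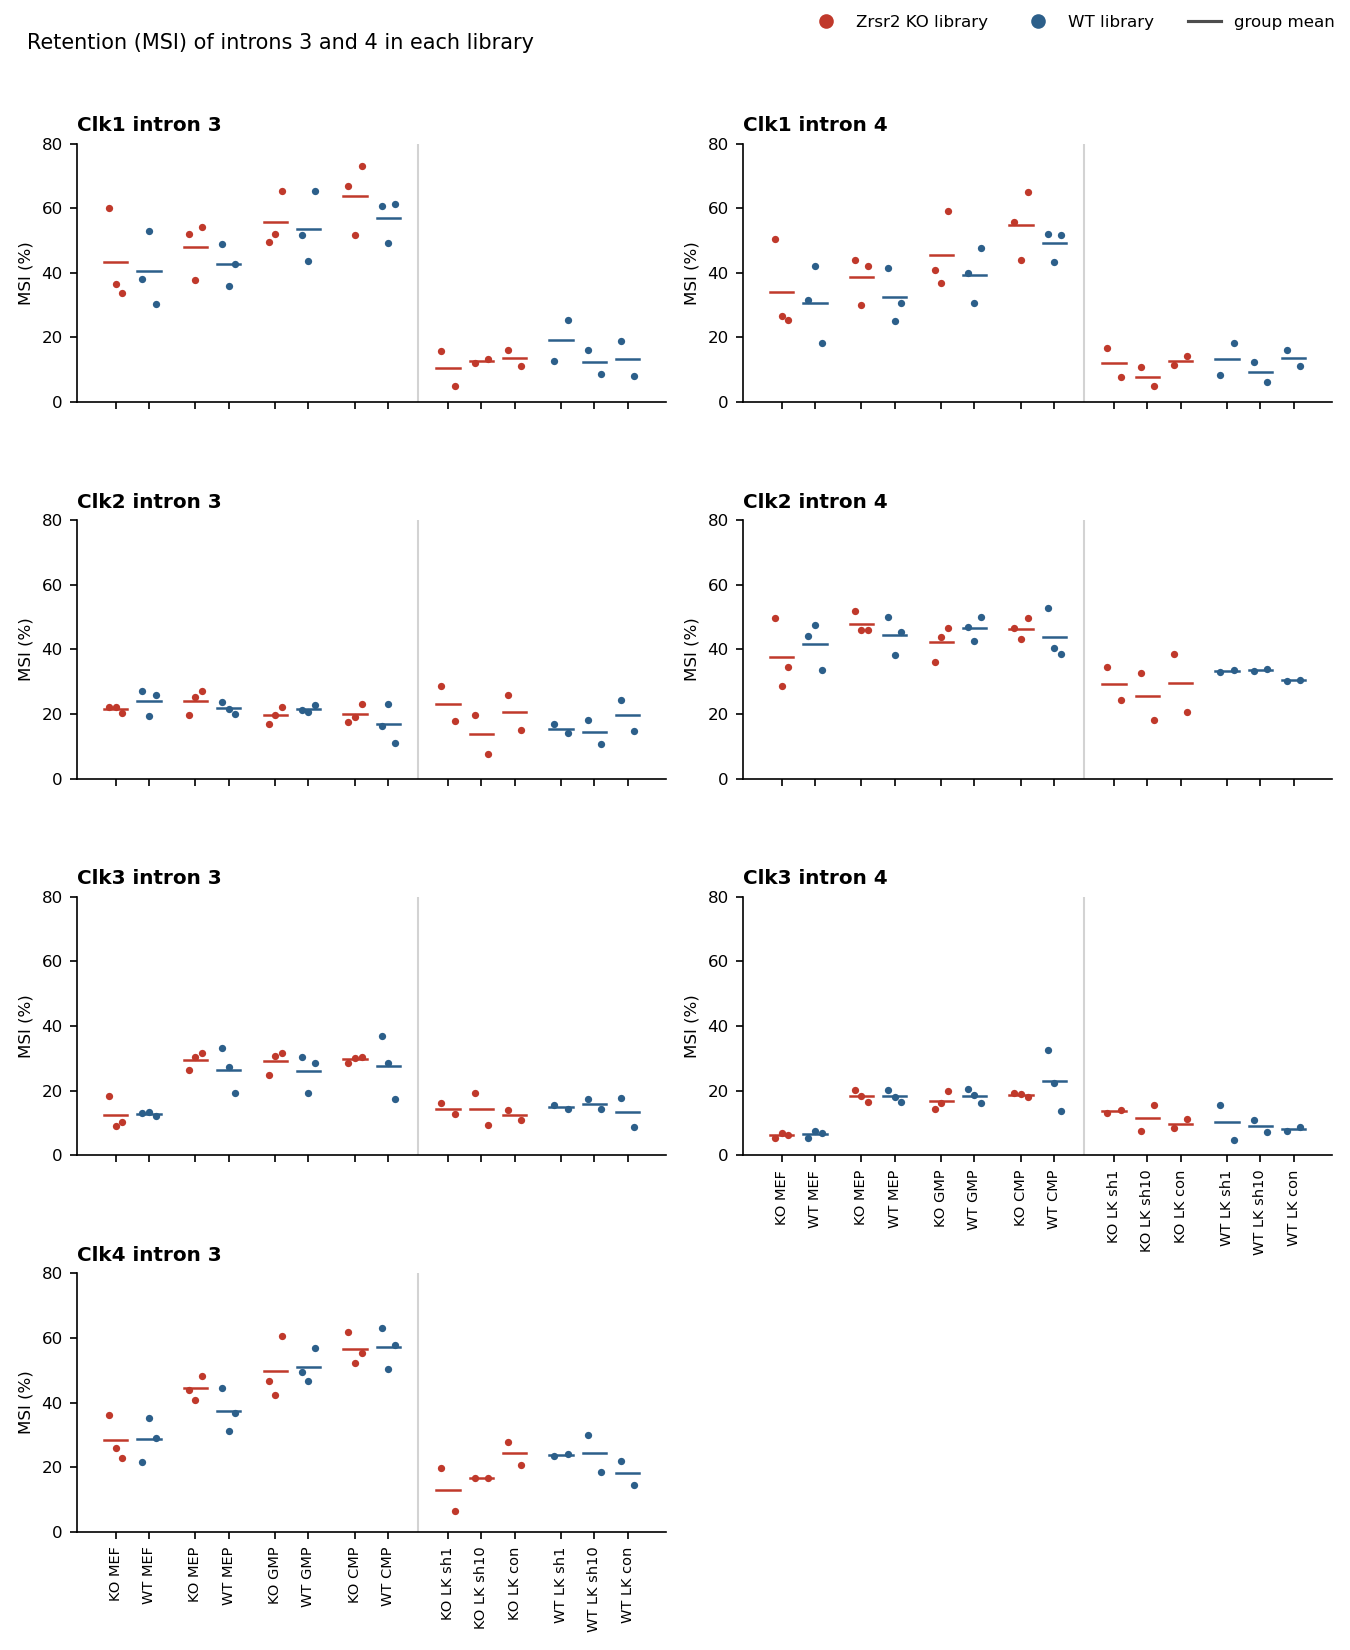
Retention (deposited MSI, in percent, vertical axis) of the 7 listed introns that flank exon 4 in each library, by group (horizontal axis, KO left of WT in each cell type, then the Lin-Kit+ hairpin groups, LK); each point is 1 library, red for KO and blue for WT, and the line is the group mean. KO and WT points overlap in each progenitor type and in MEF, with Clk1 intron 3 at 51.9% to 73.2% in KO CMP and 49.2% to 61.4% in WT CMP.

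No member intron passed the test between KO and WT. The test was edgeR's diffSpliceDGE, which asks whether exon-intron and spliced reads of an intron change unequally, with p adjusted over all introns tested. It called 0 of 44 tested member introns in CMP, where it called 0.00659% of all introns, 0 of 44 in GMP (0.00824% of all) and 0 of 44 in MEP (0.00494% of all). At an unadjusted p under 0.05 there was 1 member intron in CMP (Clk2 intron 5), 1 in GMP (Clk1 intron 5) and 0 in MEP. Over all 60675 tested introns there were 3730 in CMP, 1611 in GMP and 2429 in MEP. A fit with a term for each library and limma on the log ratio also called 0 in each cell type.

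The sizes were small against their intervals, though the intervals leave room for changes. As KO minus WT on the log2 scale, for exon-intron reads relative to spliced ones, Clk1 intron 3 gave 0.44 in CMP (95% interval -0.56 to 1.45), 0.11 in GMP (-0.89 to 1.12) and 0.31 in MEP (-0.69 to 1.32). Clk4 intron 3 gave -0.04 in CMP (-0.84 to 0.76), -0.07 in GMP (-0.86 to 0.73) and 0.42 in MEP (-0.38 to 1.22). Clk2 intron 4 gave 0.15, -0.25 and 0.20 in CMP, GMP and MEP, and Clk3 intron 4 gave -0.28, -0.16 and -0.00. The difference of the KO effect between cell types was called for none of the 44 introns by any of the 3 tools, with 1 of 44 at an unadjusted p under 0.05 for GMP minus CMP, 0 for MEP minus CMP and 1 for MEP minus GMP, in each case Clk2 intron 5. These tests called 0.0%, 0.00165% and 0.0% of all introns, and 2698, 3157 and 2123 of all 60675 introns had an unadjusted p under 0.05.

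Gene levels are given in CPM (spliced reads scaled by the library total) per intron, as the mean over the listed introns of the reference transcript other than introns 3 and 4, which are 10 in Clk1, 10 in Clk2, 7 in Clk3 and 10 in Clk4. A level per junction can be compared between genes of different length. Clk1 was the most abundant member in each progenitor library. It had 25.5, 28.0 and 24.8 CPM per intron in KO CMP against 31.7, 30.3 and 25.3 in WT CMP, 13.4, 19.7 and 17.5 in KO GMP against 17.0, 17.5 and 19.0 in WT GMP, and 18.5, 16.4 and 11.7 in KO MEP against 19.3, 14.2 and 12.1 in WT MEP. Clk2 came next, with 8.25 to 11.1 in KO and 7.60 to 10.6 in WT progenitors. Clk3 (6.12 to 10.1 in KO, 6.41 to 9.49 in WT) and Clk4 (4.06 to 7.71 in KO, 3.85 to 8.65 in WT) had the lowest levels. The order Clk1, Clk2, Clk3, Clk4 held in 15 of 18 progenitor libraries, and in the other 3, all GMP, Clk4 was above Clk3, so these neighbours do not differ beyond their spread in GMP.

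None of the 4 genes differed between KO and WT by edgeR's quasi-likelihood test on the spliced reads summed over all listed introns of a gene. It called 0 of 4 in CMP (0.0228% of all genes), 0 of 4 in GMP (0.0171%) and 0 of 4 in MEP (0.0456%). The log2 difference of Clk1 was -0.19 in CMP (95% interval -0.54 to 0.17), -0.09 in GMP (-0.45 to 0.26) and -0.01 in MEP (-0.37 to 0.35). In GMP 2 members had an unadjusted p under 0.05, Clk3 (log2 difference -0.16) and Clk2 (-0.13), and in CMP and MEP 0 had. Over all 17563 tested genes, 448 had such a p in GMP, 1039 in CMP and 775 in MEP. DESeq2 called 0 of 4 in each. The difference of the KO effect between cell types was called for 0 of 4 genes, where edgeR called 0.0% of all genes for GMP minus CMP, 0.0114% for MEP minus CMP and 0.0114% for MEP minus GMP. It had an unadjusted p under 0.05 for 1 member, Clk3 in GMP minus CMP (-0.28), where 857 of all 17563 genes had one. DESeq2 called 0 of the 4 members.

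**Figure D3:**
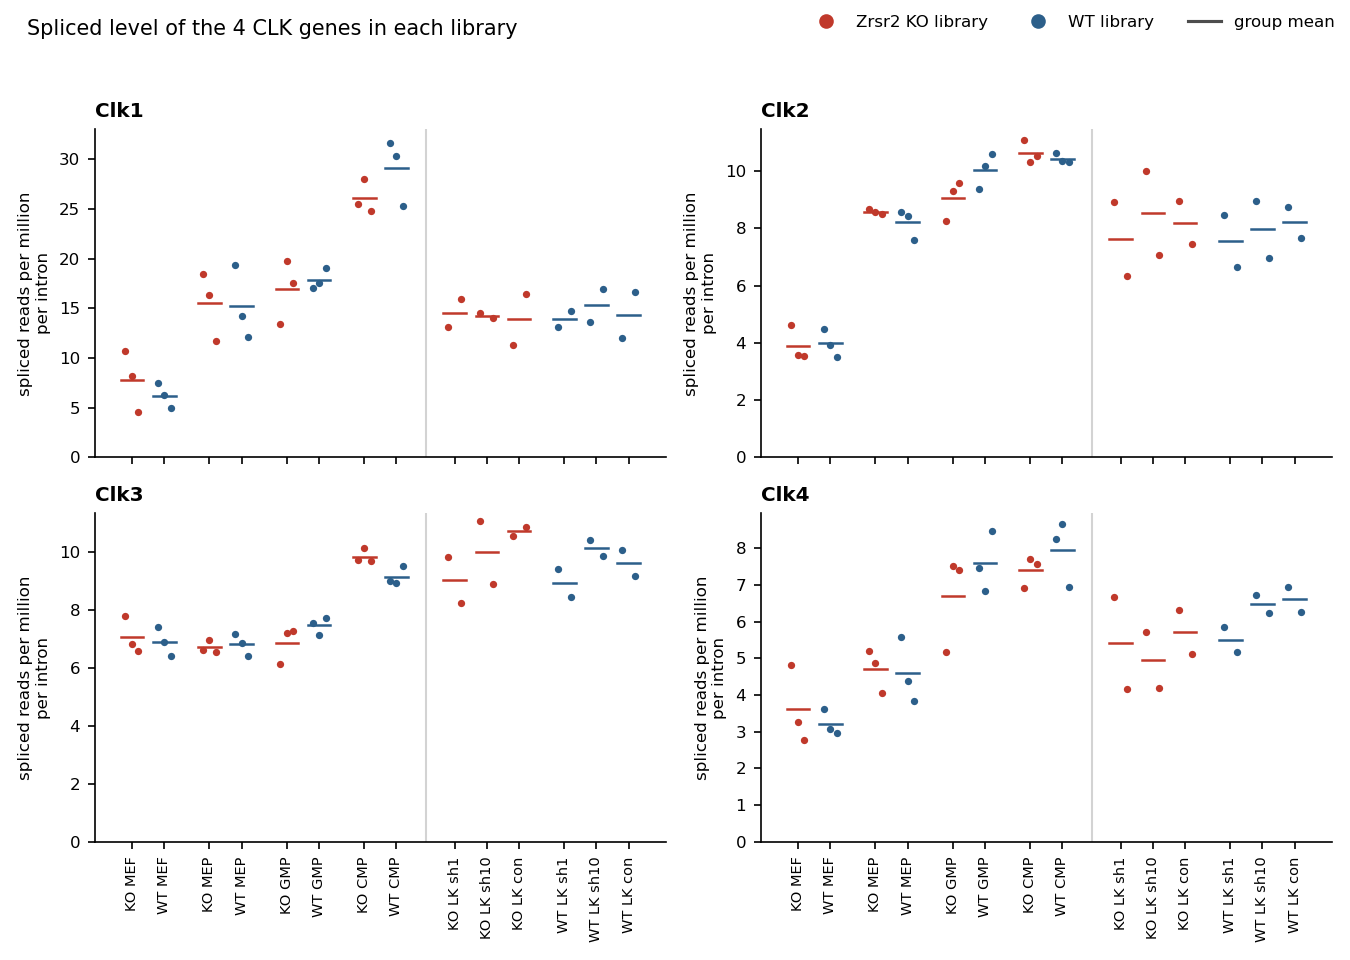
Level of each Clk gene in each library, in spliced CPM per intron (vertical axis), by group (horizontal axis, KO left of WT, Lin-Kit+ hairpin groups as LK); each point is 1 library, red for KO and blue for WT, and the line is the group mean. Clk1 is highest in CMP, at 24.8 to 28.0 in KO and 25.3 to 31.7 in WT, and the genotypes overlap.

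All 4 Clk genes were lower in WT MEP than in WT CMP by edgeR, in a comparison that called 46.7% of all genes and 25.5% of them as lower. Clk1 had 19.3, 14.2 and 12.1 CPM per intron in WT MEP against 31.7, 30.3 and 25.3 in WT CMP (log2 difference -0.77, SE 0.17, adjusted p = 0.00114). Clk4 had 5.58, 4.38 and 3.85 in WT MEP against 8.25, 8.65 and 6.94 in WT CMP (-0.60, SE 0.14, adjusted p = 0.00221). The groups did not overlap for either gene.

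Clk3 (log2 difference -0.28, SE 0.07, edgeR adjusted p = 0.00359) and Clk2 (-0.21, SE 0.06, edgeR adjusted p = 0.0107) were lower by less, where the median over all genes was -0.05. The call for Clk2 was lost in a fit on the WT MEP and WT CMP libraries alone (adjusted p = 0.0639) and without WT CMP replicate 1 or WT MEP replicate 3 (adjusted p up to 0.0800). Markers moved with this comparison: the summed level of 4 mature erythroid genes (4 of 4 detected) was 116 to 170 CPM in WT MEP and 19.6 to 66.3 CPM in WT CMP. Their part in the result was not tested.

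Against WT GMP, WT MEP had lower Clk4 (-0.68, edgeR adjusted p = 0.000866) and Clk2 (-0.28, adjusted p = 0.00107), in a comparison that called 45.8% of all genes. Clk1 (-0.22, adjusted p = 0.329) and Clk3 (-0.15, adjusted p = 0.0882) were not called. In WT GMP against WT CMP, where 24.8% of all genes were called, Clk1 was lower (-0.56, SE 0.17, adjusted p = 0.0227), with 17.0, 17.5 and 19.0 in WT GMP against 31.7, 30.3 and 25.3 in WT CMP. That call was lost without any 1 of WT GMP replicates 1 and 2 and WT CMP replicates 1 and 2, with an adjusted p of up to 0.0760, although DESeq2 called it too.

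Of the SR proteins, substrates of the kinases, 10 of 11 were tested in WT MEP against WT CMP, of which 6 were higher, 0 lower and 4 not called. The median log2 difference was 0.23, against -0.05 over all genes, of which 46.7% were called. Srsf1 was higher by 0.97, Srsf10 by 0.53, Srsf2 by 0.51 and Srsf3 by 0.22. Among 16 other kinases of the SRPK, DYRK, HIPK and related families, 1 was higher and 6 lower, a share near the 46.7% of all genes called. They include Srpk2, an SR protein kinase, at -1.32, Hipk2 at -0.92, Hipk1 at -0.37 and Dyrk3 at 1.13.

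Of 10 nonsense-mediated decay factors, 4 were higher and 1 lower in WT MEP against WT CMP, which is also near the 46.7% of all genes called. They include Upf1, the helicase at the centre of that pathway, at 0.49, Smg9 at 0.34, Smg5 at 0.20 and Smg6, its endonuclease, at -0.51. Of 3 other genes known for regulated retained introns, Ogt was lower (-0.64) and Mat2a higher (0.24). Of 5 SR-related proteins, Srrm1 was higher (0.52) and Son lower (-0.33). Without a block, none of these genes passed the test in any KO or hairpin comparison.

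Among WT progenitors, retention was called different at Clk4 intron 3 and Clk3 intron 1. In WT MEP against WT CMP diffSpliceDGE called these 2 of 44 member introns (0.664% of all introns), with 5 of 44 at an unadjusted p under 0.05. Of all 60675 tested introns, 6460 were at an unadjusted p under 0.05. Clk4 intron 3 had 44.6%, 31.1% and 36.7% in WT MEP against 63.1%, 50.5% and 57.7% in WT CMP, and the groups did not overlap. Its log2 ratio differed by -1.17 (SE 0.37, adjusted p = 0.0298).

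The call of Clk4 intron 3 was not stable. It was lost with a library term (adjusted p = 0.0849, where 0.534% of all introns were called), by limma (0.269, with 0.354% of all called), in a fit on the WT MEP and WT CMP libraries alone (0.0624), and with the reads of the higher-coordinate end alone (0.105). It was also lost without WT MEP replicate 2 or 3 or WT CMP replicate 1 or 3, and it held with the mouse as a block (adjusted p = 0.0164). The exon-intron share of all reads was 2.12% to 2.60% in WT MEP and 2.42% to 2.85% in WT CMP, and the part of that shift in the result was not tested. Clk1 introns 3 and 4 had lower means in WT MEP too (42.6% and 32.4%, against 57.0% and 49.1% in WT CMP), with diffSpliceDGE adjusted p of 0.271 and 0.259.

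Clk3 intron 1, the first intron at chr9:57761868-57765073, had the largest difference of any member intron in that comparison. It had 1.81%, 0% and 2.73% in WT MEP (10, 0 and 16 exon-intron reads) against 12.7%, 15.5% and 11.1% in WT CMP (103, 67 and 68 reads). The log2 ratio, computed with 0.5 added to each count, differed by -4.20 (SE 0.86, adjusted p = 0.00121), and it rests in part on the library at 0: without WT MEP replicate 2 it was -2.67 (adjusted p = 0.0163). KO cells had 0.726%, 1.13% and 1.79% in MEP and 10.3%, 9.60% and 6.77% in CMP.

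WT GMP had 10.8%, 9.20% and 7.72% at this intron, and WT MEP were again lower (-3.64, adjusted p = 0.0115), the only member intron called of 44 where 0.496% of all were. Against WT CMP the call held with a library term (adjusted p = 0.000435) and was lost with limma (0.0534). Against WT GMP it held with a library term (adjusted p = 0.00920, 1 of 44 members and 0.377% of all introns called) and was lost with limma (0.101, 0 of 44 members and 0.468% of all introns). The call against WT GMP was lost without WT MEP replicate 1 or 2 or WT GMP replicate 1 or 2, and without WT MEP replicate 2 the value was -2.11 (adjusted p = 0.108). In progenitors 89.2% of the exon-intron reads at this intron were at its 3′ end, where an annotated exon of transcript Clk3-208 (chr9:57761716-57764308) runs across the boundary. The part of that exon in the result was not tested. WT GMP against WT CMP called 0 of 44 member introns (0.0824% of all), with 3 at an unadjusted p under 0.05 (Clk1 introns 5 and 6 and Clk2 intron 8) and 0 by the library term or limma. Of all 60675 introns tested there, 3756 had an unadjusted p under 0.05.

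**Figure D4:**
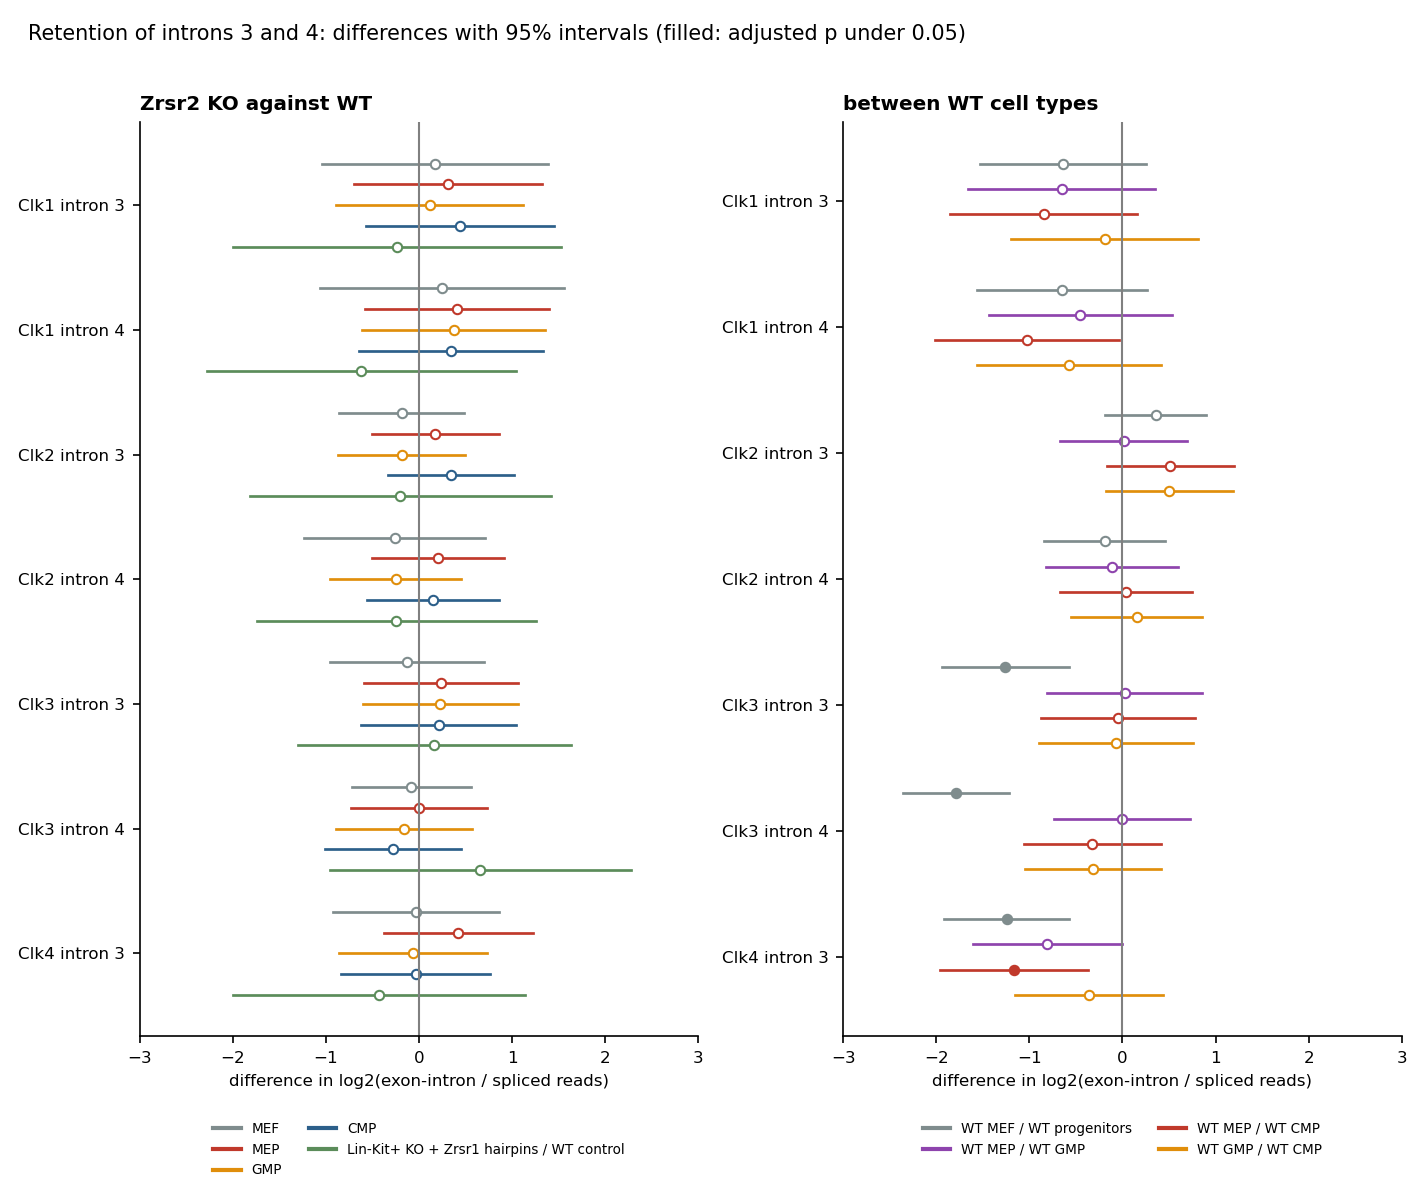
Difference of the log2 ratio of exon-intron to spliced reads (horizontal axis) for the 7 introns that flank exon 4, with 95% intervals; the left panel has KO against WT in each cell type and KO with Zrsr1 hairpins against WT control in Lin-Kit+ cells, the right panel has WT cell types, and filled points passed an adjusted p under 0.05. Filled points stand only on the right, for Clk4 intron 3 in MEP against CMP (-1.17) and for Clk3 introns 3 and 4 and Clk4 intron 3 in MEF against progenitors (-1.26, -1.79 and -1.24).

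MEF had lower levels of 3 of the 4 genes than progenitors. Clk1 had 10.7, 8.22 and 4.56 CPM per intron in KO MEF and 7.50, 6.24 and 4.93 in WT MEF. Clk3 had 7.79, 6.82 and 6.58 in KO MEF and 7.39, 6.89 and 6.41 in WT MEF, so that Clk3 was above Clk1 in 3 of 6 MEF libraries and below it in the other 3. Against the mean of the WT progenitors, WT MEF were lower in Clk1 (log2 difference -1.51, SE 0.21, edgeR adjusted p = 2.25e-06), Clk2 (-1.12, SE 0.08, adjusted p = 1.33e-10) and Clk4 (-0.83, SE 0.15, adjusted p = 5.47e-05).

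The comparison of MEF with progenitors called 68.4% of all genes and 29.4% as lower. Its 9 WT progenitor libraries came from 3 mice and were fitted as separate units, with no block. Clk3 was at 0.00 (adjusted p = 0.993), and under DESeq2, which called 67.8% of all genes, it was called higher (0.15, adjusted p = 0.0405), as it was in edgeR with DESeq2's size factors (adjusted p = 0.0496), a scaling that shifts the median of all genes to 0.32 from 0.17. Relative to that median, Clk3 was lower than the typical gene under either scaling.

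**Figure D5:**
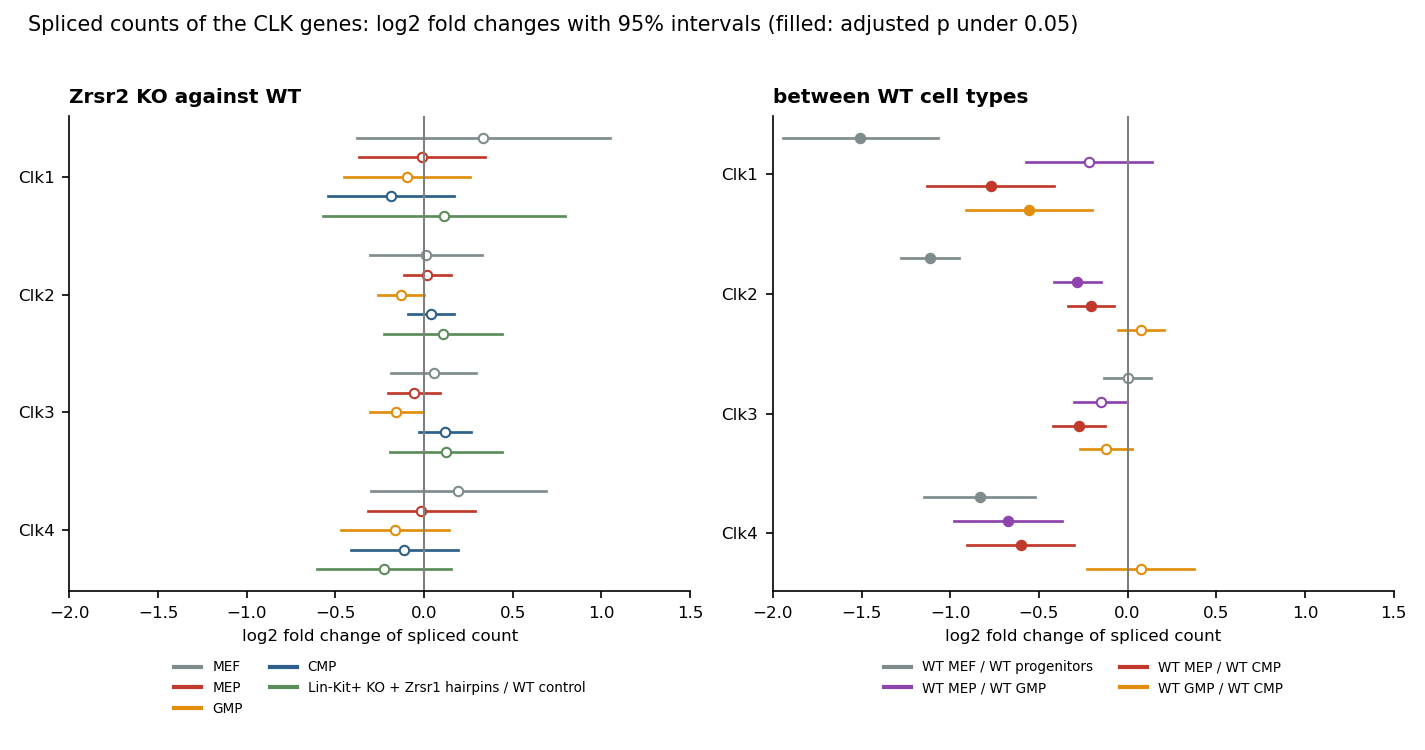
Log2 difference in spliced reads (horizontal axis) of the 4 Clk genes with 95% intervals, in the same comparisons as for the introns; filled points passed an adjusted p under 0.05 by edgeR. No point is filled for KO or hairpins, whereas Clk1 is at -0.77 in WT MEP against WT CMP and at -1.51 in WT MEF against WT progenitors.

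The SR proteins were lower along with the Clk genes in WT MEF, 9 of 11 lower and 1 higher with a median of -0.83, and with Srsf7 at -2.05, Srsf3 at -1.62, Srsf4 at -1.58 and Srsf10 at -1.10. All 5 SR-related proteins were lower, with Tra2b at -1.40 and Srrm2 at -0.83. Of 16 other kinases of the SRPK, DYRK, HIPK and related families, 5 were higher and 7 lower, a share near the 68.4% of all genes called. They include Dyrk1b at 2.09, Hipk3 at 0.90, Srpk2 at 0.85 and Prpf4b at -1.20. Of 10 nonsense-mediated decay factors 0 were higher and 8 lower, among them Upf3b (-1.59). The 3 other hosts of regulated retained introns were lower too, with Mat2a at -1.09, Nxf1 at -0.80 and Ogt at -0.57. Beside each of these counts, 68.4% of all genes were called and 29.4% were called lower.

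Retention in WT MEF differed from WT progenitors at 9 of 44 member introns, where 14.6% of all introns were called and 12.3% as lower. The median over all introns was -0.42. Clk3 intron 4 had 5.25%, 7.35% and 6.99% in WT MEF against 13.7% to 32.4% in WT CMP, 16.2% to 20.5% in WT GMP and 16.5% to 20.3% in WT MEP, with no overlap (log2 ratio difference -1.79, SE 0.27, diffSpliceDGE adjusted p = 2.15e-07). KO MEF were at the same level, with 5.44%, 6.78% and 6.24%.

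Clk3 intron 3 had 13.2%, 13.4% and 12.1% in WT MEF against a mean of 26.7% in WT progenitors (-1.26, SE 0.33, adjusted p = 0.000544). Clk4 intron 3 had 21.7%, 35.3% and 29.1% in WT MEF against a mean of 48.5% in WT progenitors (-1.24, SE 0.32, adjusted p = 0.00178). The call for Clk4 intron 3 was lost without WT MEF replicate 4. The flanking introns of Clk1 (-0.64 and -0.65) and Clk2 (0.36 and -0.19) were not called, with adjusted p of 0.334 to 0.647. At Clk2 intron 3 this depended on the end counted: with the 3′ end alone, the end with the tandem acceptor, the difference was 1.56 and called (adjusted p = 0.000646), and with the 5′ end alone it was 0.05 (adjusted p = 0.947).

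Other introns went up in WT MEF. Clk1 intron 6 had 11.6%, 12.7% and 14.4% in WT MEF against 1.69% to 7.08% over the WT progenitors, with no overlap (1.58, adjusted p = 0.00199). Clk2 intron 9 had 7.08%, 4.08% and 8.02% in WT MEF against 1.53% to 2.75% (1.71, adjusted p = 0.000245). KO MEF had 6.58%, 10.8% and 6.80% at Clk1 intron 6, below the 3 WT MEF values, and 5.52%, 4.39% and 2.56% at Clk2 intron 9, which overlapped WT MEF. Neither was called between genotypes.

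The remaining calls in WT MEF lay nearer the threshold: Clk1 intron 5 (1.14, adjusted p = 0.0499), Clk2 intron 12 (0.62, adjusted p = 0.0446) and Clk4 intron 6 (2.08, adjusted p = 0.0349) were higher, and Clk1 intron 12 (-1.55, adjusted p = 0.0462) was lower. The library term called 7 of 44 members (12% of all introns) and limma 8 (18.7%). The count was 5 without WT GMP replicate 1, 5 without WT MEF replicate 6 and 4 without WT MEF replicate 4, and Clk3 introns 3 and 4, Clk1 intron 6 and Clk2 intron 9 were called each time a library was left out. Summed levels of 7 fibroblast markers (7 of 7 detected) were 60402 to 70685 CPM in WT MEF and 27.7 to 753 CPM in WT progenitors. Those of 4 macrophage markers (4 of 4 detected) were 157 to 1625 CPM in WT MEF and 2.07 to 39.7 CPM in WT progenitors. The exon-intron share of all reads was 1.60% to 1.69% in WT MEF and 2.12% to 2.85% in WT progenitors. The part of these in the results was not tested.

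Genotype made no called difference in MEF. Clk1 intron 3 had 60.0%, 36.6% and 33.7% in KO MEF and 38.3%, 53.0% and 30.4% in WT MEF, and the groups overlapped. No member intron of 31 tested was called (0.0% of all introns), and 5 had an unadjusted p under 0.05, all lower in KO: Clk2 introns 5 and 12, Clk3 intron 9 and Clk4 introns 2 and 12. Of all 32197 introns tested in MEF, 1373 had an unadjusted p under 0.05. The library term and limma called 0. None of the 4 genes was called (0.0% of all genes), by edgeR or DESeq2, and 0 had an unadjusted p under 0.05. Clk1 was at 0.33 (95% interval -0.38 to 1.05), which allows a change in either direction.

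In cultured Lin-Kit+ cells the flanking introns of Clk1 had their lowest values of the study. In the order experiment 1 and experiment 2, Clk1 intron 3 had 15.9% and 5.01% in KO with sh1, 12.1% and 13.2% in KO with sh10, 16.2% and 11.2% in KO with the control hairpin, 12.9% and 25.3% in WT with sh1, 16.0% and 8.71% in WT with sh10 and 19.0% and 7.92% in WT with the control hairpin. All 12 values were below the 18 progenitor values (36.0% to 73.2%) and the 6 MEF values (30.4% to 60.0%). Clk2 intron 4 had 18.3% to 38.5%. Because kit, culture and cells changed together, no test was made between these libraries and the rest. Markers differed too: 4 macrophage genes (4 of 4 detected) summed to 391.7 to 2139 CPM in Lin-Kit+ libraries and to at most 39.7 CPM in progenitors, and 5 mature neutrophil genes (5 of 5 detected) to 1524 to 14051 CPM in Lin-Kit+ libraries and to at most 93.1 CPM in progenitors. Their part in the values was not tested.

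The flanking introns still led the numbered introns of their genes in most Lin-Kit+ libraries. All measured flanking introns were above all the other numbered introns in 9 of 12 libraries for Clk1, 8 of 12 for Clk2, 9 of 12 for Clk3 and 10 of 12 for Clk4. Their medians were 12.3% in Clk1, 24.3% in Clk2, 12.8% in Clk3 and 20.1% in Clk4, against 1.46%, 2.24%, 1.31% and 2.16% for the other introns.

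Zrsr1 hairpins and genotype made no called difference there. In each of the 7 Lin-Kit+ comparisons diffSpliceDGE called 0 of 39 member introns and 0.0% of all introns, as did limma and the library term for the members. At an unadjusted p under 0.05 there were 2 member introns for KO against WT with the control hairpin, 3 for hairpins against control in KO, 3 for the difference of the hairpin effect between genotypes, and 0 in the other 4 comparisons. In the first 3 comparisons named, 587, 1191 and 840 of all 44467 introns had such a p. None of the member introns with such a p flanks exon 4.

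Clk4 intron 3 shows how wide the intervals are. In KO cells it had 19.7% and 6.38% with sh1 and 16.5% and 16.7% with sh10, against 27.9% and 20.6% with the control hairpin. The 4 values with hairpins lay below both control values, and the log2 ratio differed by -0.97 (95% interval -2.53 to 0.60), which was not called. In WT cells the difference went the other way (0.51, not called), and the difference of the hairpin effect between genotypes was -1.47 (-3.69 to 0.74). With 2 libraries a group, changes of the size seen between cell types lie inside such intervals and were not detectable.

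No Clk gene was called different between Lin-Kit+ groups. Clk1 had 13.2 and 15.9 CPM per intron in KO with sh1, 14.5 and 14.0 in KO with sh10, 11.4 and 16.4 in KO with the control hairpin, 13.1 and 14.7 in WT with sh1, 13.6 and 17.0 in WT with sh10 and 12.1 and 16.6 in WT with the control hairpin. Over the 12 libraries Clk2 had 6.34 to 10.004, Clk3 8.23 to 11.1 and Clk4 4.16 to 6.94 CPM per intron. The order Clk1, Clk3, Clk2, Clk4 held in 12 of 12 libraries, with Clk3 above Clk2 where progenitors had it below. edgeR called 0 of 4 genes in each of the 7 comparisons, with 0 at an unadjusted p under 0.05 and 0 by DESeq2; it called 0.0% of all genes in 6 of them and 0.746% for sh1 against sh10. With the experiment as a block, edgeR called 1604 genes (9.0%) for hairpins against control in KO and 1560 (8.75%) in WT, 2089 (11.7%) for KO with hairpins against WT control and 2041 (11.4%) for sh1 against sh10, and again none of the 4 members. For KO with hairpins against WT control, Clk1 was at 0.11 (95% interval -0.57 to 0.79) and Clk4 at -0.23 (-0.61 to 0.15).

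Under that block a few genes of the lists passed the test. Tra2b, an SR-related regulator of splicing, was lower with hairpins than with the control in KO (-0.51, edgeR adjusted p = 0.0126) and in WT (-0.45, adjusted p = 0.0236). With sh1 against sh10, Tra2b was higher (0.63, adjusted p = 0.00131) and Tra2a lower (-0.57, adjusted p = 0.00517). In KO the SR protein Srsf6 (-0.38, adjusted p = 0.0479) and the decay factor Upf3a (-0.51, adjusted p = 0.0312) were lower with hairpins too. In KO the calls are 1 of 10 tested SR proteins, 1 of 5 SR-related proteins and 1 of 10 decay factors, where 9.0% of all genes were called. Of 15 tested kinases of the SRPK, DYRK, HIPK and related families, 2 were higher and 3 lower with sh1 than with sh10, where 11.4% of all genes were called. They include Hipk1 (-0.88, edgeR adjusted p = 0.000345), Srpk1 (0.68, 0.00165), Srpk2 (-0.62, 0.00714) and Hipk2 (-0.85, 0.00814). In KO with hairpins against WT control, Hipk2 (-0.75, 0.0323) and Tra2b (-0.46, 0.0160) were lower, where 11.7% of all genes were called.

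Of the cassette exons found in the tables, 1 belongs to a member, exon 2 of Clk4. Its skipping junction made up 3.08% to 11.3% of the reads across that exon in MEF (median 7.01%), 0% to 7.92% in progenitors (median 2.46%, 0 to 37 skipping reads) and 0% to 6.78% in Lin-Kit+ cells (median 4.74%). Skipping averaged 6.22% in WT MEF and 3.20% in WT progenitors, a log2 ratio difference of 1.65 that was not called (diffSpliceDGE adjusted p = 0.800). In none of the 18 comparisons was the event called by diffSpliceDGE or limma. diffSpliceDGE called 4.21% of all such events in WT MEF against WT progenitors, 0.348% in WT MEP against WT CMP, 0.203% in WT MEP against WT GMP, 0.116% in WT GMP against WT CMP and 0.0% in the 14 other comparisons, and diffSpliceDGE gave 0 at an unadjusted p under 0.05. With at most 37 skipping reads a library, small shifts in its use were not detectable.

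The libraries held 30481450 to 84832431 spliced reads each. Zrsr2, the targeted gene, had 0 to 1.52 CPM in the 18 KO libraries and 19.2 to 34.2 CPM in the 18 WT libraries. Of 13 progenitor markers, Kit averaged 0.436 CPM in WT MEF and 343 to 479 CPM in the WT progenitor groups. Elane averaged 6.65 CPM in WT MEP and 3109 CPM in WT GMP, and Gata1 194 CPM in WT MEP and 3.44 CPM in WT GMP. The summed level of the 12 detected markers was 22861 to 26544 CPM in WT GMP and 4183 to 5786 CPM in WT CMP. It was 889 to 1278 CPM in WT MEP and 181 to 1042 CPM in WT MEF, so that the sum overlapped between these 2 groups. Zrsr1 was not analysed here.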

How the data were processed

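The study's RNA-seq tables give, per library and intron, 3 raw read counts deposited by the authors without normalization (exon-intron reads at each end and spliced reads), the deposited percent MSI and the deposited covered fraction. Positions are on mm10, per the submitters' processing notes. Read aligner and counting tool: not given in the sources used here. Introns were matched to GENCODE M21. Members and gene lists were chosen with earlier results of these data known.

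Gene levels were tested with edgeR 4.0.16 (TMM, filterByExpr, quasi-likelihood test) and introns and cassette exons with diffSpliceDGE, with Benjamini-Hochberg adjustment over all features and a threshold of 0.05. Sizes, SE and intervals of introns are limma's on log2((exon-intron + 0.5)/(spliced + 0.5)), so an interval and an adjusted p can disagree. Progenitors (18 libraries), MEF (6), Lin-Kit+ (12) and MEF with progenitors (24) were fitted separately, with the mean of sh1 and sh10 for hairpin comparisons. In simulated counts diffSpliceDGE called more unchanged introns than its threshold allows, whereas limma and a fit with a library term did not, so both were run as alternatives; the library term was chosen after seeing the data. DESeq2 was an alternative for genes. KO and WT libraries of 1 replicate number deviated together in CMP (correlations of 0.165 to 0.192) and MEP (0.206 to 0.319), a pairing read from the data, so the number was also fitted as a block. All 4 members were named whatever their values. Of the lists, genes were named if called, at most 4 per list and comparison by smallest p, and introns if they had a group mean of at least 20 exon-intron reads or were called. The values of a gene in these lists are not reported here, though the counts of its list include it.

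The p-values measure the spread between libraries, which within a group come from separate mice, embryos or cultures. CMP, GMP and MEP of 1 number came from the same mouse, and deviations of these 18 pairs correlated at -0.134 to 0.246. The 2 Lin-Kit+ experiments pair libraries by their labels, with correlations of 0.670 to 0.757 over 15 pairs. Blocks were run as alternatives, except for WT MEF against WT progenitors. There the 9 WT progenitor libraries of 3 mice were fitted as separate units, so its p-values take no account of the shared mice.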

Additional observations from a re-analysis of the deposited data

How the results depend on the processing

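The calls at the Clk genes between WT cell types changed with the libraries and settings used, whereas the counts of 0 between genotypes and hairpins stayed at 0 under each one run. Of 360 recomputed counts of calls, 353 stayed within 1.5 times the reported count, and 405 of 420 did when a library was left out. Most of these counts were 0 as reported and stayed at 0, so the totals say little about the counts above 0. Called introns in WT MEP against WT CMP numbered 2, and 1 with only those groups fitted, 1 with the library term, 0 with the higher-coordinate end and 0 with limma. In WT MEP against WT GMP the count was 1, and 0 with the higher-coordinate end or limma. With the higher-coordinate end alone, Clk3 intron 1 did not pass the count filter, so it was not tested in either comparison. In WT MEF against WT progenitors the count was 9, and 5 with a filter of at least 10 counts. The cause of the other changes was not tested. With each library left out in turn, called introns numbered 1 to 2, 0 to 1 and 4 to 8 in these 3 comparisons, and called genes 3 to 4 in WT MEP against WT CMP and 0 to 1 in WT GMP against WT CMP. Of values for single genes and introns, 1577 of 1603 kept their side of the threshold, with 23 calls lost and 3 gained, and 1712 of 1764 did when a library was left out, with 52 calls lost. The sign changed in 54 of the 1603 and 261 of the 1764, none of them a called value.

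Where it was run, the replicate block (mouse, replicate number or experiment) changed the call of 0 members. Over all genes the experiment block moved calls for hairpins against control to 1604 in KO and 1560 in WT, against 0 without it, for KO with hairpins against WT control to 2089 against 0, and for sh1 against sh10 to 2041 against 133. The smallest member adjusted p under it was 0.295 (Clk4). In GMP and MEF, KO and WT libraries of 1 number share only that number: 2 of 3 correlations were over 0.1 in each (-0.0377 to 0.266 and -0.347 to 0.745), and 4 and 3 of 6 libraries were closest to their own number.

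Depth limits the low introns: the 0.257% to 1.68% retention of Clk1 intron 12 in WT MEF rests on 2 to 15 exon-intron reads.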

Other observations

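Genes whose level followed a Clk gene over the 18 progenitor libraries were ranked by Pearson's r of log2(CPM + 1) among 9492 genes with a mean of at least 5 CPM. The libraries share mice and cell types, so the values are a description. Clk1 was closest to Kdm3a (r = 0.97), Sin3a (0.97) and Ints6l (0.96). Clk2 was closest to Stx16 (0.96), Dennd4b (0.95) and Dtx3l (0.94). Clk3 was closest to Rcor2 (0.94), Robo3 (0.93) and Sugp2 (0.93). Clk4 was closest to Lrrcc1 (0.96), Cryzl1 (0.96) and Trpc4ap (0.95). The members correlated with each other at 0.69 (Clk3 and Clk4) to 0.86.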
